A study of Mus musculus with 8 samples.

Results

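The 9 genes described here are Bmi1, its close neighbour Commd3, and 7 other genes of Polycomb repressive complex 1 (PRC1): Pcgf2, Ring1, Rnf2, Cbx2, Cbx7, Cbx8 and Phc1. They were picked by symbol with earlier results of the same contrast, MOZ KO against MOZ WT, in view. Their values are therefore given as a description, without a test. All 9 were found among 27179 genes in the count table, and all 9 were among the 15086 genes that passed the filter on low counts. RNA was sequenced from 8 hearts of E10.5 mouse embryos, 1 library per heart. The 3 MOZ KO hearts had lost both alleles of Kat6a, also called Moz, which encodes a histone acetyltransferase, and are written Kat6a-/- by the submitters. The 5 MOZ WT hearts were Kat6a+/+. Not given in the sources used here are the strain, the litters, the construction of the allele and the sex of the embryos. The labels name no treatment for either group.

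PRC1 is a chromatin complex that attaches ubiquitin to histone H2A and compacts the chromatin of silenced developmental genes. Each complex pairs a RING E3 ligase, Ring1 or Rnf2, with 1 protein of the Pcgf family, to which Bmi1 and Pcgf2 belong. In its canonical form a Cbx protein reads the methyl mark placed by Polycomb repressive complex 2 (PRC2), and a Phc protein joins complexes to each other. Bmi1 is known in mice as a repressor of the Cdkn2a locus and of Hox genes, and loss of Moz and of Bmi1 has opposite effects on Hox expression in the mouse embryo. Commd3 is not a Polycomb gene. It encodes a COMM domain protein of the complex with Ccdc22 and Ccdc93 (the CCC complex) that takes part in recycling of membrane proteins from endosomes.

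Commd3 and Bmi1 lie on chromosome 2 in the same orientation, with Commd3 upstream. In the GRCm38.p6 RefSeq table, the assembly that mm10 stands for, Commd3 spans 18672435 to 18676231 and Bmi1 spans 18677018 to 18686629. The gap between the end of Commd3 and the start of Bmi1 is 786 bases, and neither body overlaps another gene of that table. The 250 bases before each start are printed, 5′ to 3′ on the plus strand, because these are the starts of the 2 genes whose RNA differed between the groups. Capitals mark the E-box CACGTG, a binding motif of basic helix-loop-helix factors, which reads the same on both strands.
Commd3 (GRCm38.p6, chr2:18672185-18672434, plus strand): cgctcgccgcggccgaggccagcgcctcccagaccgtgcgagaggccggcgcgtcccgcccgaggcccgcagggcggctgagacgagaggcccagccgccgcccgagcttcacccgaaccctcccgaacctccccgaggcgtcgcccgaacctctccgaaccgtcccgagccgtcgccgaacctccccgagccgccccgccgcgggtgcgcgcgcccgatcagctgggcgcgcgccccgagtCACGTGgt
Bmi1 (GRCm38.p6, chr2:18676768-18677017, plus strand): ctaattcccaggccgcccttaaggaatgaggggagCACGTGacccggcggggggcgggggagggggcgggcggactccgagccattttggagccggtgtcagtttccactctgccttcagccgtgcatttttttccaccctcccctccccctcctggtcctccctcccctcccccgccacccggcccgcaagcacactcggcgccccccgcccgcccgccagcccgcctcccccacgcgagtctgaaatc

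Each of these windows held CACGTG once, starting 8 bases before the start of Commd3 and 215 bases before that of Bmi1. The longer string CACGTGAC was also found once in each, on the minus strand at Commd3 and on the plus strand at Bmi1. Of 32851 RefSeq promoter windows of the same length, 6.02% held CACGTG and 1.85% held CACGTGAC on either strand. These shares are over windows of any CpG content. Whether the windows of the other members held CACGTGAC was not looked at. A window was in the table for 8 of the 9 genes, all but Cbx2. CACGTG was also found in those of Pcgf2 and Cbx8, whose RNA overlapped between the groups, and not in those of Ring1, Rnf2, Cbx7 and Phc1. The windows of Commd3 and Bmi1 were rich in CpG, with 45 and 21 CpG dinucleotides, against a median of 6 over all windows. This was not particular to them, with 30 at Ring1, 23 at Cbx7, 22 at Cbx8 and 20 at Rnf2, while Phc1 had 8 and Pcgf2 5. The GC box GGGCGG, searched on both strands, occurred 4 times at Commd3 and 6 times at Bmi1, and at least once in 32.7% of windows. It was also found at Pcgf2, Ring1, Rnf2, Cbx7 and Cbx8, but not at Phc1. The strings CCGGAA (ETS factors, in 12.0% of windows), AAGATGGCG (YY1, 0.606%) and TTTGGCGC or TTTCCCGC (E2F, 1.30%) were absent from both strands at Commd3 and Bmi1. CACGTGAC contains CACGTG, and overlapping matches of a string were each counted. A match is a description of these letters, and binding was not measured.

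Libraries held 19911803 to 34539787 counts. Values are given as CPM, the counts per 1000000 counts of the library after scaling by the trimmed mean of M values. In the 8 hearts Bmi1 was read by 741 to 1415 counts and Commd3 by 701 to 1356, a counting error of about 2.66% to 3.78%. Kat6a itself, the deleted gene, stood at 133 to 141 CPM in MOZ KO and at 138 to 156 CPM in MOZ WT hearts (log2 fold change -0.08 ± 0.05 SE, adjusted p = 0.529 in edgeR's quasi-likelihood test with Benjamini-Hochberg adjustment). The counts do not resolve exons and the deleted stretch is not given, so Kat6a RNA is no check of the genotype labels. Heart muscle markers were high in all hearts, with 8 of 8 tested, 1 of them higher in MOZ KO, and a summed level of 31191 to 34568 CPM in MOZ KO and 29869 to 31841 CPM in MOZ WT. Of markers of other cell types, 7 of 14 macrophage and leukocyte genes rose (summed 55.1 to 71.2 CPM in MOZ KO, 20.4 to 42.9 CPM in MOZ WT). Of 10 epicardial genes 6 fell and 1 rose (summed 362 to 414 CPM in MOZ KO, 478 to 547 CPM in MOZ WT), and of 6 endothelial genes 2 rose (922 to 968 CPM in MOZ KO, 833 to 946 CPM in MOZ WT). Erythroid genes overlapped (0 of 7 called, 5095 to 8705 CPM in MOZ KO and 3647 to 15112 CPM in MOZ WT). Neural genes summed to 14.1 to 17.7 CPM in MOZ KO and 17.8 to 31.8 CPM in MOZ WT, with 0 of 3 tested genes past the threshold. No marker was at 0 in every heart. Of the liver genes, Afp had 31, 13 and 268 counts in MOZ KO replicates 1 to 3, against 2, 1, 1, 0 and 14 counts in MOZ WT replicates 1 to 5 (log2 fold change 5.01 ± 1.41 SE, edgeR adjusted p = 0.176). In CPM the groups did not overlap for Afp, and MOZ KO replicate 3 stood far above the rest at 12.1 CPM. Alb had 0, 4 and 27 counts in MOZ KO replicates 1 to 3 and 0 counts in all 5 MOZ WT hearts. Xist RNA, which is made from an inactive X chromosome, was at most 0.254 CPM in the 3 MOZ KO hearts, against 306 and 300.3 CPM in MOZ WT replicates 4 and 5 and at most 0.372 CPM in the other 3 MOZ WT hearts. The part of cell makeup and liver RNA in the values below was not tested. In bulk RNA of a heart, fewer cells of a type and less RNA per cell cannot be told apart.

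Bmi1 RNA was higher in every MOZ KO heart than in any MOZ WT heart. Bmi1 (Entrez gene 12151) had 47.3, 45.9 and 45.0 CPM in MOZ KO replicates 1 to 3, against 29.7, 35.5, 29.6, 32.8 and 31.8 CPM in MOZ WT replicates 1 to 5. The 3 MOZ KO hearts lay close together and the groups did not overlap. Means were 46.1 ± 1.17 CPM in MOZ KO and 31.9 ± 2.43 CPM in MOZ WT (SD, n = 3 and n = 5), a log2 fold change of 0.54 ± 0.07 (SE), or 1.45-fold.

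Commd3, the neighbour upstream, differed by nearly the same amount. Commd3 (Entrez gene 12238) had 45.4, 47.8 and 49.7 CPM in MOZ KO replicates 1 to 3, against 31.8, 33.6, 38.6, 34.8 and 29.0 CPM in MOZ WT replicates 1 to 5. Again no MOZ WT heart reached the lowest MOZ KO heart. Means were 47.6 ± 2.15 CPM in MOZ KO and 33.6 ± 3.59 CPM in MOZ WT (SD, n = 3 and n = 5), a log2 fold change of 0.50 ± 0.08 (SE), or 1.42-fold.

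**Figure D1:**
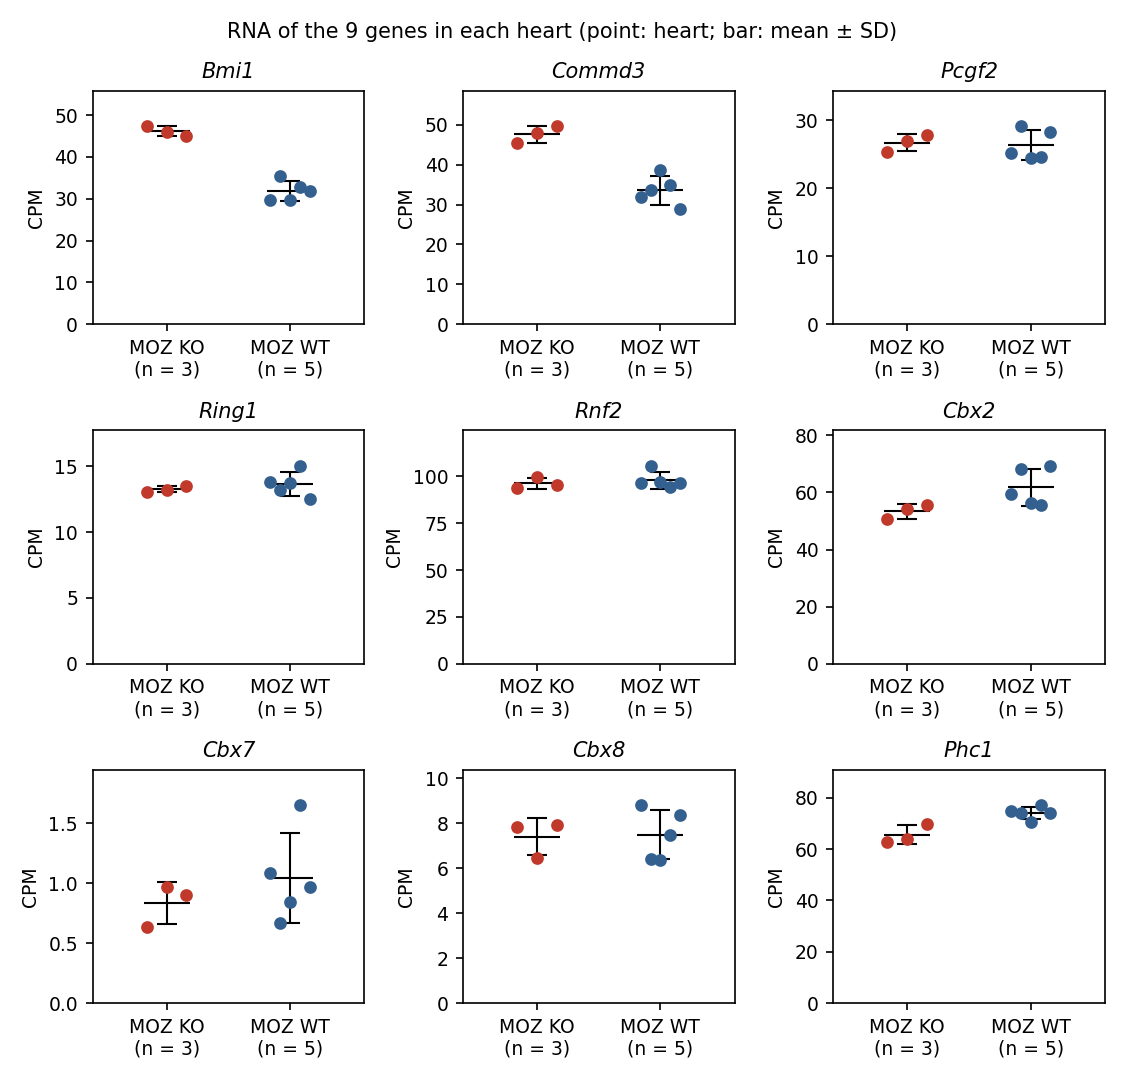
CPM of the 9 genes in each heart, MOZ KO (n = 3) left and MOZ WT (n = 5) right, with 1 point per heart, the mean as a line and the SD as the error bar; each vertical axis starts at 0 and has its own scale. Bmi1 and Commd3 stand higher in all 3 MOZ KO hearts than in all 5 MOZ WT hearts, at 45.0 to 47.3 CPM and 45.4 to 49.7 CPM, and the other 7 genes differ less or overlap.

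Bmi1 and Commd3 were the 2 members among the genes past an adjusted p of 0.05, and 0 members were lower past it. Over all genes tested, 403 of 15086 (2.67%) passed in the edgeR quasi-likelihood test with Benjamini-Hochberg adjustment, 217 of them higher in MOZ KO (1.44%) and 186 lower (1.23%). The number of genes past the threshold was 194 without MOZ KO replicate 1 and 263 without MOZ KO replicate 3. Since the same contrast chose the members, nothing is read from their share. Among the 217 genes higher in MOZ KO, Bmi1 was the 78th by fold change and Commd3 the 85th. Of the 114 of these whose average log2 CPM was 5 or more, Bmi1 was the 7th and Commd3 the 11th. That limit lies just under the averages of the 2 genes themselves, 5.22 and 5.28, so nothing is read from these places.

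Single hearts moved the values by small amounts. Leaving out each heart in turn gave a log2 fold change of 0.51 to 0.58 for Bmi1 and 0.45 to 0.56 for Commd3. The lowest value of Commd3 came without MOZ WT replicate 5, the heart with the least Commd3 RNA. Without the 2 hearts that held Xist RNA, the log2 fold changes were 0.55 for Bmi1 and 0.45 for Commd3.

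Whether the levels of the neighbours followed each other from heart to heart within the MOZ WT group was not tested. In MOZ WT hearts Bmi1 was highest in replicate 2 and lowest in replicate 3, nearly level with replicate 1 (29.6 and 29.7 CPM). Commd3 was highest in replicate 3. The log2 ratio of Bmi1 to Commd3 in CPM was 0.06, -0.06 and -0.14 in MOZ KO replicates 1 to 3, against -0.10, 0.08, -0.38, -0.09 and 0.13 in MOZ WT replicates 1 to 5. The ratios of the groups overlapped, with means of -0.05 ± 0.10 in MOZ KO and -0.07 ± 0.20 in MOZ WT (SD, n = 3 and n = 5). A count per gene does not show whether a transcript runs on from Commd3 into Bmi1.

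**Figure D2:**
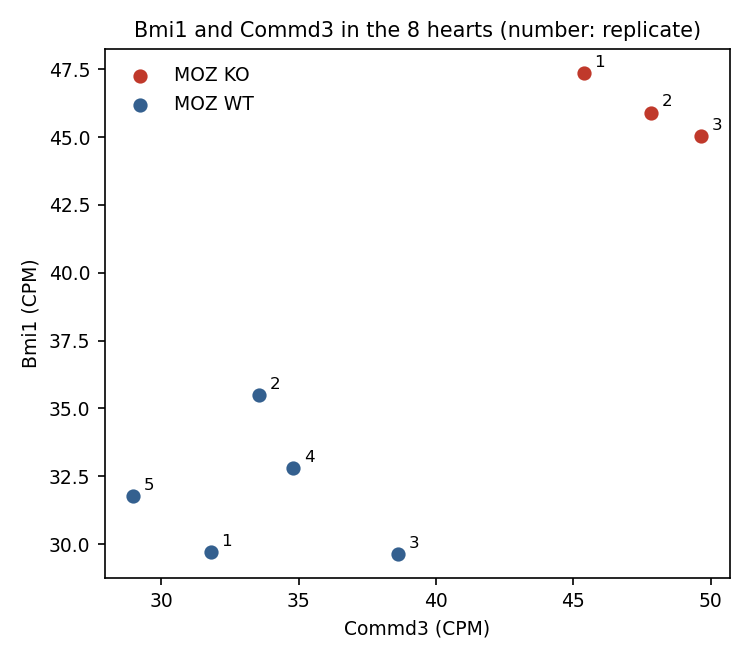
Bmi1 CPM against Commd3 CPM in the 8 hearts, with 1 point per heart and the replicate number beside it; the axes do not start at 0. The 3 MOZ KO hearts lie apart at the upper right, and within the MOZ WT hearts replicate 3 has the highest Commd3, 38.6 CPM, and the lowest Bmi1, 29.6 CPM.

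Of the PRC1 genes, Pcgf2 is the closest counterpart of Bmi1 and can take its place in the complex. Pcgf2 (Entrez gene 22658, chromosome 11, 97688821 to 97702434) had 25.3, 26.9 and 27.8 CPM in MOZ KO replicates 1 to 3, against 25.2, 29.1, 24.4, 24.5 and 28.2 CPM in MOZ WT replicates 1 to 5. The MOZ KO values lay inside the MOZ WT range, and the log2 fold change was 0.02 ± 0.08 (SE). Per kb of gene length, the RNA of Bmi1 made up 59.6%, 57.3% and 56.1% of the sum of Bmi1 and Pcgf2 in MOZ KO replicates 1 to 3, against 48.2%, 49.0%, 48.9%, 51.3% and 47.1% in MOZ WT replicates 1 to 5. The share of Bmi1 was thus above that of Pcgf2 in all 3 MOZ KO hearts and near equal to it in the MOZ WT hearts. Of the summed RNA per kb of all 6 Pcgf genes, Bmi1 made up 13.8% ± 0.122 in MOZ KO and 10.01% ± 1.02 in MOZ WT (SD, n = 3 and n = 5).

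The catalytic subunits did not separate the groups. Rnf2 (Entrez gene 19821, chromosome 1, 151469398 to 151500991), the E3 ligase also known as Ring1b, had 93.9, 99.6 and 95.2 CPM in MOZ KO replicates 1 to 3, against 96.3, 106, 96.9, 94.6 and 96.2 CPM in MOZ WT replicates 1 to 5. The values overlapped, with MOZ KO replicate 1 the lowest of the 8 hearts and MOZ WT replicate 2 the highest, and the log2 fold change was -0.03 ± 0.05 (SE). Ring1 (Entrez gene 19763, chromosome 17, 34020792 to 34024680), its paralog, had 13.1 to 13.5 CPM in MOZ KO and 12.5 to 15.1 CPM in MOZ WT hearts, a log2 fold change of -0.04 ± 0.10 (SE).

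Of the genes of canonical PRC1 that read the PRC2 mark or join complexes, Cbx2 and Phc1 lay lower in MOZ KO by small amounts. Cbx2 (Entrez gene 12416, chromosome 11, 119023019 to 119031275), a chromobox protein that also compacts chromatin, had 50.6, 54.2 and 55.6 CPM in MOZ KO replicates 1 to 3, against 59.3, 68.1, 56.3, 55.8 and 69.4 CPM in MOZ WT replicates 1 to 5. The groups did not overlap, but MOZ KO replicate 3 and MOZ WT replicate 4 nearly met. Cbx2 had a log2 fold change of -0.21 ± 0.07 (SE) and was not among the genes past the threshold. An annotated gene that is not analysed here, Gm35829, overlaps its body, so reads of Cbx2 could include some of that gene. Phc1 (Entrez gene 13619, chromosome 6, 122317731 to 122340227), a polyhomeotic protein whose SAM domain links complexes to each other, had 62.8, 64.0 and 69.8 CPM in MOZ KO replicates 1 to 3, against 74.9, 74.0, 70.5, 77.1 and 73.9 CPM in MOZ WT replicates 1 to 5. These groups did not overlap either, with a log2 fold change of -0.18 ± 0.05 (SE) that did not pass. Values that do not overlap between the groups were found for 4 of the 9 members, 2 with MOZ KO above and 2 with MOZ KO below, and for 9.59% of all genes tested (4.77% with MOZ KO above and 4.81% below).

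The remaining chromobox genes were at low levels. Cbx8 (Entrez gene 30951, chromosome 11, 119036303 to 119040913) ranged over 6.46 to 7.92 CPM in MOZ KO and 6.38 to 8.80 CPM in MOZ WT hearts, a log2 fold change of -0.01 ± 0.14 (SE). Cbx7 (Entrez gene 52609, chromosome 15, 79915804 to 79971143), the main chromobox protein of undifferentiated embryonic stem cells, was read by 19, 19 and 20 counts in MOZ KO replicates 1 to 3, against 32, 14, 29, 38 and 24 counts in MOZ WT replicates 1 to 5. At 0.834 ± 0.175 CPM in MOZ KO and 1.04 ± 0.374 CPM in MOZ WT (SD, n = 3 and n = 5), its log2 fold change of -0.34 ± 0.37 (SE) was too imprecise to place. The body of Cbx7 overlaps the tested gene Apobec3, and reads in the shared stretch make this count uncertain.

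Bmi1 and Commd3 were also set against the 7 other members in the same heart, as a description. The log2 CPM of Bmi1 minus the mean log2 CPM of the 7 others was 1.44, 1.30 and 1.22 in MOZ KO replicates 1 to 3, against 0.55, 0.90, 0.69, 0.64 and 0.65 in MOZ WT replicates 1 to 5. The same difference for Commd3 was 1.38, 1.36 and 1.36 in MOZ KO, against 0.65, 0.82, 1.08, 0.72 and 0.51 in MOZ WT. Neither measure overlapped between the groups. The CPM of Bmi1 and of Commd3 did not overlap either, and both were picked with this contrast in view, so nothing is read from that. The mean of the 7 others itself differed by -0.10 (MOZ KO minus MOZ WT), and it weighs Cbx7, read by few counts, like the rest. Between the groups the measure differed by 0.64 for Bmi1 and 0.61 for Commd3, beside their own log2 fold changes of 0.54 and 0.50. The median log2 fold change of the 7 others was -0.04, with a range of -0.34 to 0.02, beside a median of 0.00 over all genes tested.

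Levels per kb of gene length put the members in an order that was largely shared by the groups. In MOZ KO hearts the order was Commd3 (54.1 ± 2.44 CPM per kb, SD, n = 3), Rnf2, Phc1, Cbx2, Bmi1 (12.8 ± 0.326), Pcgf2 (9.41 ± 0.455), Ring1, Cbx8 and Cbx7 (0.288 ± 0.0604). No neighbours in that order overlapped among the 3 MOZ KO hearts. In MOZ WT hearts Commd3 led as well (38.1 ± 4.07 CPM per kb, SD, n = 5), and Bmi1 (8.87 ± 0.675) came just after Pcgf2 (9.27 ± 0.777). In MOZ WT hearts the values of Commd3 and Rnf2, Phc1 and Cbx2, Pcgf2 and Bmi1, and Ring1 and Cbx8 overlapped, so the order within these pairs is not resolved.

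**Figure D3:**
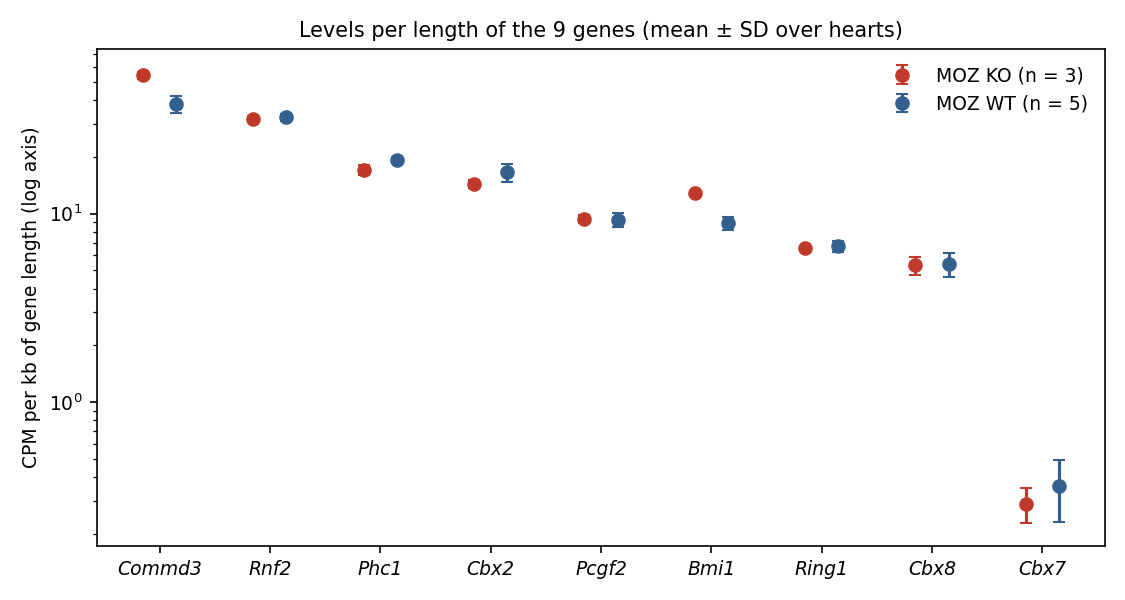
CPM per kb of gene length (log axis) of the 9 genes, ordered by their MOZ WT level, with the mean and SD over 3 MOZ KO hearts (left of each pair) and 5 MOZ WT hearts (right). Commd3 is highest and Cbx7 lowest in both groups, and Bmi1 lies above Pcgf2 in MOZ KO, 12.8 against 9.41 CPM per kb, but not in MOZ WT.

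The other genes of the pathway were tested in the same fit, over all genes, of which 2.67% passed. Of 20 further PRC1 subunits and partners, 0 rose, 0 fell and 20 did not pass (edgeR quasi-likelihood test, Benjamini-Hochberg), with 3 at an unadjusted p under 0.05 (1 higher and 2 lower in MOZ KO, beside 14.2% of all genes tested) and 0 past the threshold in DESeq2 or limma voom. Their median log2 fold change was 0.00, as over all genes. Auts2, a partner of PRC1 complexes with Pcgf3 or Pcgf5, had 40.4 ± 3.28 CPM in MOZ KO and 34.8 ± 3.18 CPM in MOZ WT (SD, n = 3 and n = 5; log2 fold change 0.22 ± 0.08 SE, edgeR adjusted p = 0.183). Scmh1, a homolog of the fly protein Sex comb on midleg, had 64.9 ± 4.09 CPM in MOZ KO and 74.0 ± 6.90 CPM in MOZ WT (log2 fold change -0.19 ± 0.07 SE, edgeR adjusted p = 0.204). Bcor, a corepressor of complexes with Pcgf1, had a log2 fold change of -0.11 ± 0.05 (SE, edgeR adjusted p = 0.330). Values overlapped between the groups for all 20 of these genes.

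PRC2, which places the methyl mark read by Cbx proteins, had 0 of 12 genes past the threshold in either direction, beside 2.67% of all genes tested. In DESeq2 or limma voom 0 passed. An unadjusted p under 0.05 was found for 1 gene, beside 14.2% of all genes tested. That gene was Phf19, an accessory subunit that guides PRC2 to chromatin, with 5.88 ± 0.805 CPM in MOZ KO and 7.87 ± 0.937 CPM in MOZ WT (SD, n = 3 and n = 5; log2 fold change -0.41 ± 0.14 SE, edgeR adjusted p = 0.163). Phf1 (log2 fold change 0.16 ± 0.12 SE, edgeR adjusted p = 0.580) and Ezh1 (0.12 ± 0.09 SE, adjusted p = 0.583) came next. Of 6 genes for removal of ubiquitin from histone H2A, 0 passed, with 1 at an unadjusted p under 0.05 and 0 in DESeq2 or limma voom. It was Asxl3, of the family of Bap1 cofactors, at 6.93 ± 1.29 CPM in MOZ KO and 9.25 ± 1.77 CPM in MOZ WT (log2 fold change -0.40 ± 0.16 SE, edgeR adjusted p = 0.252). The deubiquitinase Usp16 and the Bap1 cofactor Asxl2 had log2 fold changes of 0.08 ± 0.06 (SE) and 0.05 ± 0.05 (SE), which did not pass (edgeR adjusted p = 0.577 and 0.751).

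The partners of Commd3 were looked at in the same fit. Of 14 other genes of COMMD proteins and the CCC complex, 0 passed. Over all genes tested 2.67% passed, so 0 of 14 is near that share. An unadjusted p under 0.05 was found for 2, beside 14.2% of all genes tested. In DESeq2 or limma voom 0 passed. The family member of smallest p was Commd10, at 48.2 ± 2.97 CPM in MOZ KO and 43.3 ± 2.56 CPM in MOZ WT (SD, n = 3 and n = 5; log2 fold change 0.16 ± 0.07 SE, edgeR adjusted p = 0.267). Commd6 had a log2 fold change of 0.20 ± 0.09 (SE, edgeR adjusted p = 0.344) and Vps26c, a subunit of the retriever complex, one of -0.11 ± 0.06 (SE, adjusted p = 0.448). The median of the 14 genes was -0.03, beside the log2 fold change of 0.50 of Commd3.

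**Figure D4:**
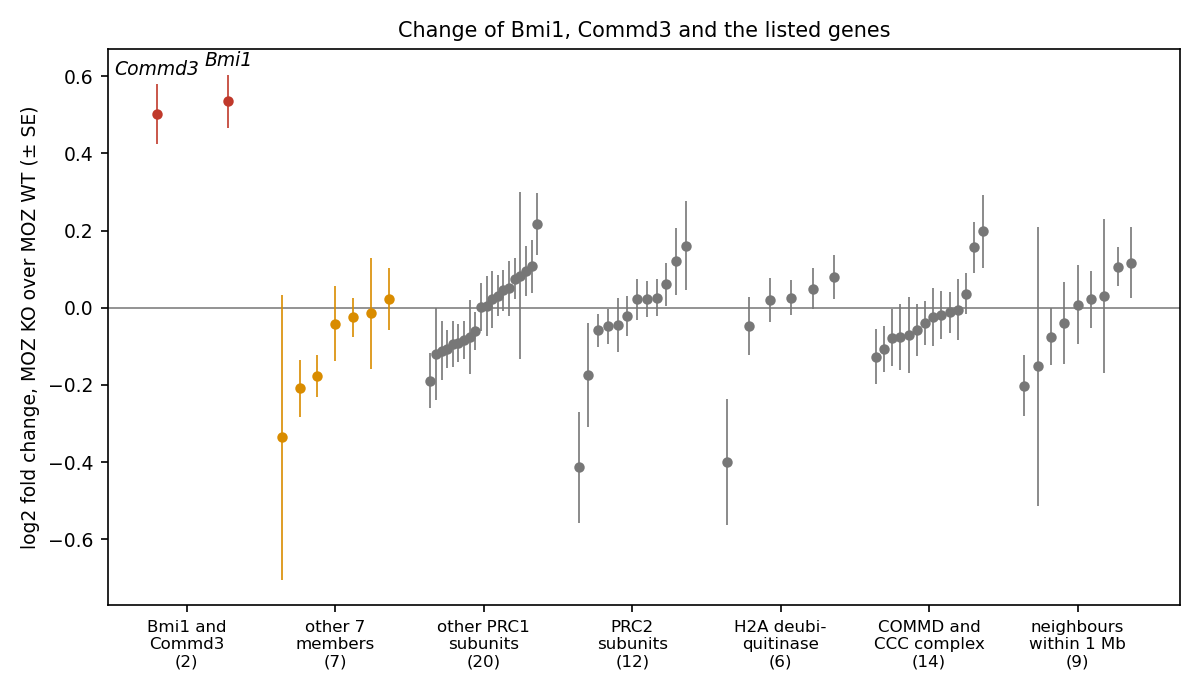
Log2 fold change of MOZ KO over MOZ WT, with its SE, for each tested gene of the lists named on the horizontal axis (number of genes in brackets), sorted within each list. Bmi1 and Commd3 lie at 0.54 and 0.50, and the tested genes of the other lists lie between -0.41 and 0.22.

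No other tested gene near the pair passed the threshold. Of the 15 other genes of the count table within 1 Mb of Commd3 and Bmi1, 9 were tested and 0 passed. Over all genes tested 2.67% passed, so 0 of 9 is near that share. An unadjusted p under 0.05 was found for 2 (1 higher and 1 lower in MOZ KO), beside 14.2% of all genes tested. In DESeq2 or limma voom 0 passed. The groups did not overlap for Mllt10 (MOZ KO above) and Pip4k2a (MOZ KO below), beside 9.59% of all genes tested. Pip4k2a, a phosphoinositide kinase gene and the nearest tested gene downstream, had 24.7 ± 1.88 CPM in MOZ KO and 28.4 ± 1.68 CPM in MOZ WT (SD, n = 3 and n = 5; log2 fold change -0.20 ± 0.08 SE, edgeR adjusted p = 0.225). Mllt10, a cofactor of the histone methyltransferase Dot1l, had 74.5 ± 1.86 CPM in MOZ KO and 69.1 ± 1.96 CPM in MOZ WT (log2 fold change 0.11 ± 0.05 SE, edgeR adjusted p = 0.347). The methionine sulfoxide reductase gene Msrb2 had a log2 fold change of 0.12 ± 0.09 (SE, edgeR adjusted p = 0.629). Dnajc1, the nearest tested gene upstream, was added to these after its value was seen, with a log2 fold change of 0.02 ± 0.07 (SE, adjusted p = 0.935).

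**Figure D5:**
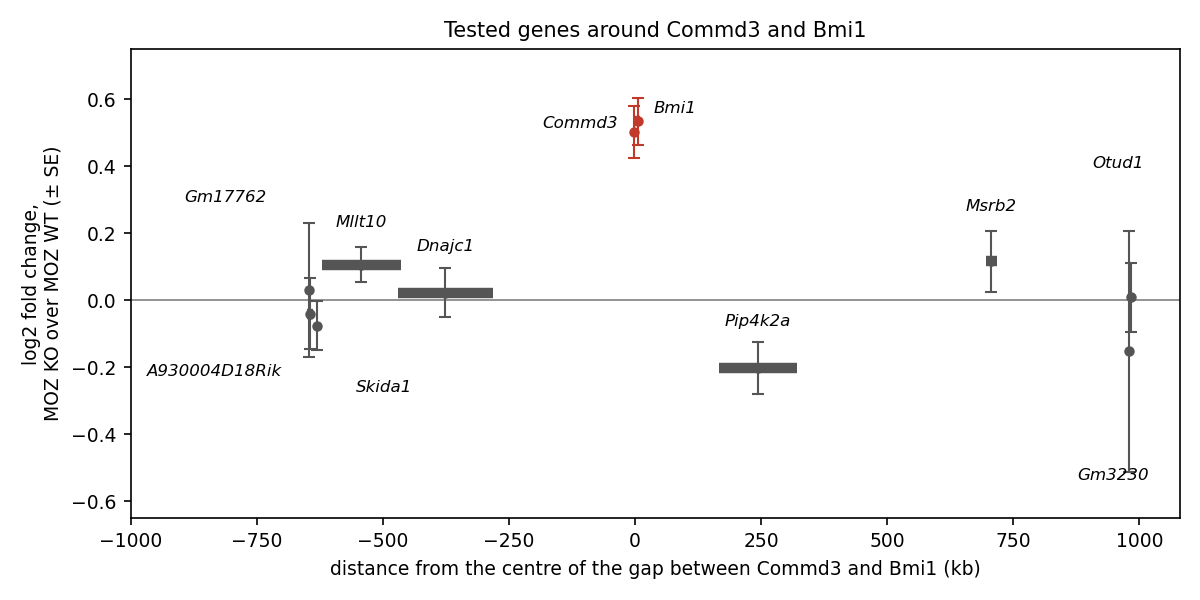
Log2 fold change of MOZ KO over MOZ WT, with its SE, of the 11 tested genes around Commd3 and Bmi1, against the distance from the centre of the gap between the pair in kb; bars show gene bodies. Commd3 and Bmi1 (red, past the threshold) lie at 0.50 and 0.54, and the 9 others lie between -0.20 and 0.12.

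The Cdkn2 locus and the Hox genes, textbook targets of Bmi1, were looked at in the same fit. Cdkn2a, which encodes the cell cycle inhibitors Ink4a and Arf, was under the filter with 11, 1 and 4 counts in MOZ KO replicates 1 to 3, against 7, 3, 3, 2 and 1 counts in MOZ WT replicates 1 to 5. Its neighbour Cdkn2b, at 0.962 ± 0.568 CPM in MOZ KO and 0.786 ± 0.370 CPM in MOZ WT (SD, n = 3 and n = 5), had a log2 fold change of 0.34 ± 0.43 (SE, edgeR adjusted p = 0.798). Cdkn2a was not tested under the filter. Of 39 Hox genes, 8 were tested and 0 passed in edgeR, DESeq2 or limma voom, with 0 at an unadjusted p under 0.05. Over all genes tested in edgeR, 2.67% passed and 14.2% had an unadjusted p under 0.05. The highest level among the 8 was that of Hoxb2, at 5.93 ± 0.595 CPM in MOZ KO and 5.09 ± 1.01 CPM in MOZ WT (SD, n = 3 and n = 5; log2 fold change 0.22 ± 0.17 SE, edgeR adjusted p = 0.615). Hoxa2 (log2 fold change -1.46 ± 0.75 SE, edgeR adjusted p = 0.392) and Hoxa3 (-1.29 ± 0.97 SE, adjusted p = 0.623) were the others of smallest p. Hoxb9, under the filter and named after its values were seen, had 7, 5 and 12 counts in MOZ KO replicates 1 to 3, against 0, 1, 1, 0 and 1 counts in MOZ WT replicates 1 to 5. Its CPM did not overlap between the groups, and without the filter on low counts it passed the threshold (log2 fold change 3.64 ± 0.99 SE, edgeR adjusted p = 0.0321), a fold that rests on 3 counts in all in MOZ WT.

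The genes whose pattern over the 8 hearts was most like that of Bmi1 or of Commd3 were listed. Likeness was measured as the root mean square difference in log2 CPM over the 8 hearts, each gene centred on its mean, among 11610 other genes, and is a description. The genes most like Bmi1 were Cd36 (0.0591), a fatty acid transporter, Sparcl1 (0.0811), a matricellular protein, and Arvcf (0.0846), an armadillo repeat protein of cell junctions. Those most like Commd3 were H1f2 (0.0814), a linker histone, Rph3al (0.0955) and Selenop (0.108), a secreted selenoprotein. The difference between Bmi1 and Commd3 was 0.152. By likeness, Commd3 was in place 89 of the 11610 genes set against Bmi1, and Bmi1 in place 62 of the 11610 set against Commd3. The pattern includes the step between the groups, and the closest genes were picked from many, so nothing is read from these places.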

How the data were processed

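E10.5 hearts of 3 MOZ KO and 5 MOZ WT embryos were sequenced from a TruSeq stranded kit, per the labels' protocols. Reads were counted per gene with featureCounts on mm10 after bcl2fastq, per the submitters' processing notes. Not given in the sources used here: aligner, annotation, versions and strand setting. Deposited were raw counts for each Entrez gene ID and its gene length. The table of the series and 8 of 8 single-heart files held identical counts. RefSeq symbols (GRCm38.p6) matched 25275 of 27179 IDs, and the rest held 1.05% of counts.

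Genes were filtered with filterByExpr (15086 kept), scaled by TMM and tested with edgeR's quasi-likelihood test (robust), MOZ KO against MOZ WT over all 8 hearts, no covariate, Benjamini-Hochberg adjustment, threshold 0.05. The common dispersion gave a biological coefficient of variation of 9.10%. The SE of a log2 fold change is its size divided by the root of the F statistic. Software was Python 3.11.15 with pandas 2.3.3, and R 4.3.3 with DESeq2 1.42.0, limma 3.58.1 and edgeR 4.0.16. The test was tried on simulated counts with known changes. The members and lists were chosen with earlier results of these data known. Named genes are all members, Kat6a, every list gene past the threshold (up to 6 a list), or the 3 of smallest p where none passed, and the 3 genes of most like pattern whose average log2 CPM was 1 or more, with a proper symbol and no place on X or Y. Alternatives were other tests (DESeq2, limma voom), scalings, filters, no robust moderation, a replicate block, Xist RNA as a covariate, and leaving out hearts. The counts of the 28 pairs of libraries differed beyond sampling noise (chi-square over degrees of freedom 8.25 to 30.5), so each library counted as a sample. Nothing says which hearts share a litter, so a p-value covers only the spread among these 8 hearts. Of the liver list, 0 of 2 tested genes passed the threshold (summed 1.27 to 14.5 CPM in MOZ KO, 0.372 to 1.62 CPM in MOZ WT).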

Additional observations from a re-analysis of the deposited data

Results flagged for a closer look

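Of the 9 genes in the 5 MOZ WT hearts, 1 had a heart far from the others. Rnf2 stood at 105.7 CPM in MOZ WT replicate 2, and the 4 other MOZ WT hearts lay between 94.6 and 96.9 CPM. The gap was 0.785 of the range of the group, above Dixon's 95% critical value of 0.710 for 5 hearts. Chance flags about 1 in 20 groups. Without that heart the log2 fold change of Rnf2 was 0.00, against -0.03 with all hearts.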

How the results depend on the processing

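The log2 fold change of Bmi1 lay between 0.51 and 0.58 and that of Commd3 between 0.45 and 0.56 over 19 alternatives. Both were past the threshold in 19 of 19. The same contrast chose them and the alternatives share hearts, so nothing is read from this tally. None of the 9 genes moved by more than 1 SD. Those of Ring1, Cbx2, Cbx7 and Phc1 stayed under 0 in every alternative that tested them (19, 19, 18 and 19), while those of Pcgf2, Rnf2 and Cbx8, near 0, had either sign. The count of all genes past the threshold, 403, was 186 with the replicate block over replicates 1 to 3, against 281 in the same 6 hearts without it, an alternative chosen after seeing the data. Leaving out single hearts gave 194 to 496 genes, and DESeq2 580. Same-numbered hearts did not deviate together (correlations of -0.12 to 0.07), so the numbers were not taken as pairs. Leaving out the 2 hearts with Xist RNA left the same 6 hearts, replicates 1 to 3, and so repeated the fit without the block. It gave 281 genes, 233 of them among the 403. The 19 alternatives count this fit 2 times. Of the listed genes that are no members, 1 passed without a filter on low counts and 0 in the 18 other alternatives. It was Hoxb9, named after its values were seen, with 24 counts over the MOZ KO and 3 over the MOZ WT hearts (log2 fold change 3.64, edgeR quasi-likelihood test, adjusted p = 0.0321). Low counts limit the precision for Cbx7, Cdkn2a, Cdkn2b and most Hox genes.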

Other observations

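Close neighbours elsewhere in the genome were looked at after the values of Commd3 and Bmi1 had been seen. Among the genes tested, 1649 pairs of adjacent genes lay less than 1000 bases apart without overlap, and at least 1 gene of the pair passed the threshold in 41 of them. Both genes passed in 1 pair, Commd3 and Bmi1, in the same direction. That pair was already known to pass, so nothing is read from its being the only one. Of the 311 pairs known to lie on the same strand, 12 had at least 1 gene past the threshold. The strand of 463 pairs was not known.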
